A study of Mus musculus with 2 samples.

Results

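Genes of 9 acute phase and antimicrobial proteins were followed by symbol in single cells of the mouse lung mesenchyme: Hp, Saa1, Saa3, Lcn2, Serpina3n, Serpina3g, Slpi, Chil1 and Wfdc12. They are 9 of the 32285 genes listed, and all 9 were found. The cells came from the lungs of Lepr-CreERT2;Rosa26-tdtomato mice aged 8-10 weeks given either saline or the lung-injuring drug bleomycin, a common model of fibrosis. In such mice an inducible Cre is driven by the leptin receptor gene Lepr, and tdTomato marks the cells in which Cre has acted and their descendants. The sorted cells were CD45-, EpCAM-, CD31- and tdTomato+, a gate set against blood, epithelial and endothelial cells. Both groups share the genotype, the gate and the 10x 3′ assay, and differ by treatment. There was 1 library per treatment, so no difference between treatments has a replicate check and none was tested. How many mice went into each library, and the dose and day of bleomycin, are not stated in the labels.

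In an infection or injury, interleukin-6 family cytokines, interleukin-1 and TNF act through STAT3, NF-kB and C/EBP factors to switch on secreted acute phase proteins, in the liver and also at the site of damage. Haptoglobin, the product of Hp, binds free hemoglobin. Saa1 and Saa3 encode serum amyloid A proteins, lipid carriers made in bulk in inflammation. Lcn2 encodes lipocalin 2, which withholds iron from bacteria by binding their siderophores. Serpina3n and Serpina3g encode clade A serpins, inhibitors of proteases. Slpi and Wfdc12 encode small WAP domain proteins, of which Slpi inhibits neutrophil elastase and both are linked to antimicrobial activity. Chil1 encodes a chitinase-like protein that binds chitin and lacks chitinase activity. In the lung these genes are best known from airway epithelium, macrophages and neutrophils, and several of them are also described in activated fibroblasts.

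The cells were grouped without the 9 genes and named from marker lists that do not hold them, so the levels below did not make the groups. After filters, 8284 saline and 10001 bleomycin cells fell into 13 clusters. Those counted as mesenchymal held 8116 saline and 9626 bleomycin cells with 58959543 and 130260244 UMIs (counted RNA molecules). Bleomycin cells were deeper, with a median of 11797 UMIs against 6778. The clusters also differed in size: the Rbp4 and Slc7a10 alveolar fibroblast-like clusters held 2884 and 3060 saline cells against 222 and 109 bleomycin cells. The inflammatory fibroblast-like cluster held 45 saline and 4406 bleomycin cells, and the fibrotic fibroblast-like cluster, led by Spp1 and Cthrc1, held 7 and 1942. These last 2 clusters, the mesothelial cell-like one, an unnamed one led by interferon response genes and one led by immune genes each had fewer than 50 saline cells and were not compared between treatments. The name of the inflammatory cluster rests on 7 of 12 markers that were at least 1.5-fold above the other cells, with none among its 10 leading genes. Their summed level there, 6883 CPM (UMIs of a gene for every 1000000 UMIs of the cells), was close to that of the Rbp4 alveolar cluster (6709 CPM in saline and 7363 CPM in bleomycin) and below that of the Ly6c1 adventitial cluster (9787 and 10557 CPM), where 9 of the 12 were raised. The name therefore does not set these cells apart by that list, and it is used here as a label for the cluster. In its bleomycin cells the 12 alveolar fibroblast markers summed to 5566 CPM and the 10 adventitial ones to 579 CPM. That alveolar sum was 8323 CPM in Rbp4 and 16899 CPM in Slc7a10 alveolar cells of bleomycin, and 1207 CPM in fibrotic cells. Of the 12 alveolar markers, 2 were raised in the inflammatory cluster. Whether its cells derive from alveolar fibroblasts was not tested. Among the 10 leading genes of the inflammatory cluster were 5 of the 9 genes studied here, Hp, Saa3, Lcn2, Wfdc12 and Chil1, beside Csf3, Cxcl13, Chl1, Mmp8 and C6. The smooth muscle-like cluster had 8 of 8 smooth muscle markers raised, and also 9 of 10 pericyte and 6 of 8 peribronchial markers. It may thus pool such cells, and it was not split further. The libraries shared 25 cell barcodes.

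Several of the 9 genes are neighbours. On the mm10 assembly, Saa3 (chr7:46711998-46715700, minus strand) and Saa1 (chr7:46740497-46742980, minus strand) lie 24.8 kb apart with 1 coding gene between them. Serpina3g (chr12:104236245-104241939) and Serpina3n (chr12:104406729-104414329), both on the plus strand, lie 164.8 kb apart in a cluster of related serpins. Wfdc12 (chr2:164189231-164190608) and Slpi (chr2:164354070-164389095), both on the minus strand, lie 163.5 kb apart in the WAP gene cluster. Lcn2 (chr2:32384633-32388252), Hp (chr8:109575128-109579172), both on the minus strand, and Chil1 (chr1:134182176-134190181, plus strand) stand alone. The last 500 bases of Saa1, where 3′ reads fall, were 94.1% identical to those of Saa2, and those of Serpina3g were 89.6% identical to Serpina3i and 86.8% to Serpina3f. Of the 50-base words in these ends, 5.32% of those of Saa1 also occurred in Saa2, 1.11% of those of Serpina3g in Serpina3f and 0 in Serpina3i. Reads from such shared words could not be told apart, and the counts of Saa1 and Serpina3g are uncertain to that extent.

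Over clusters of both libraries the levels of the serpin pair correlated with r = 0.789, though their ratios of bleomycin to saline differed in some clusters. The sequences just before the start sites are shown for this pair and for the serum amyloid A pair, the other pair of one family. They are the 250 bases before the RefSeq start on GRCm38.p6, 5′ to 3′ on the strand of the gene. Capitals mark matches, on either strand, to the letters GGG, any 2 bases and TTTCC for NF-kB, TTNNGNAAT for C/EBP or TTCNNNGAA for STAT. No 2 matches overlapped in these windows.
Serpina3n, chr12:104406458-104406707, plus strand: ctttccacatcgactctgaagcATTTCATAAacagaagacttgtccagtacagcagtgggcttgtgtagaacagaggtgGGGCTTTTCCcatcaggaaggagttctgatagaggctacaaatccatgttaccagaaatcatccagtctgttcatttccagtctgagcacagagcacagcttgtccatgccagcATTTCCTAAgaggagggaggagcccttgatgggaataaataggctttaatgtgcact
Serpina3g, chr12:104235897-104236146, plus strand: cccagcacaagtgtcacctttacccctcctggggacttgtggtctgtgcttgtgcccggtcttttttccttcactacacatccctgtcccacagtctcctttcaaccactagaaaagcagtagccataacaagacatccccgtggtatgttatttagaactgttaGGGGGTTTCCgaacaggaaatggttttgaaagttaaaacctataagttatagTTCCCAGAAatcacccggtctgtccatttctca
Saa1, chr7:46742981-46743230, minus strand: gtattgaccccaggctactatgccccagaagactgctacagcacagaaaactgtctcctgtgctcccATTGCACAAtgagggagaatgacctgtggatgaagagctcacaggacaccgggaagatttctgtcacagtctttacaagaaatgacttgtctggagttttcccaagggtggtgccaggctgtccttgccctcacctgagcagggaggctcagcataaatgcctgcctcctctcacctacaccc
Saa3, chr7:46715677-46715926, minus strand: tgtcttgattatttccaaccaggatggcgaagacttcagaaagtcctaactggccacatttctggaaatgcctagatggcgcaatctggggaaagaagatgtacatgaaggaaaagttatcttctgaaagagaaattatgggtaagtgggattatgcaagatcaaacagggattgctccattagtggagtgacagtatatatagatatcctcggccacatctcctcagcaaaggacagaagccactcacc
The Serpina3n window held 1 NF-kB match (GGGCTTTTCC) and 2 C/EBP matches (ATTTCATAA and ATTTCCTAA). The Serpina3g window held 1 NF-kB match (GGGGGTTTCC) and 1 STAT match (TTCCCAGAA). Saa1 had 1 C/EBP match (ATTGCACAA), and these letters did not occur in the Saa3 window. Of 32851 promoter windows of the same length, 1.41% held the NF-kB letters, 10.2% the C/EBP letters and 7.02% the STAT letters. Of the other genes with a window, Slpi held 2 C/EBP matches and Wfdc12 held 1, while Lcn2 and Chil1 held none of the 3. A match is a string of letters and not a bound site, and other forms of these motifs were not searched. A window without a match may therefore still hold a site. In the table used, 8 of the 9 genes had a window.

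Over all mesenchymal cells, each of the 9 genes had a higher level in the bleomycin library than in the saline library. A gene was called higher or lower where the ratio was at least 2-fold, the higher level at least 10 CPM and the 95% interval clear of 1. All intervals below are 95% intervals of counting error only and do not cover differences between mice. By this rule 8 genes were called higher and 0 lower, beside 5.56% of 8020 measured genes called higher and 5.91% called lower. Saa1 missed the minimum of 10 CPM, and Slpi and Wfdc12 reached it only in bleomycin. The genes were chosen with such results known, so this count is a description.

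Hp went from 53.0 CPM (interval 51.1 to 54.9) in saline to 443 CPM (439 to 447) in bleomycin, a ratio of 8.37 (8.07 to 8.67). Saa3 went from 261 to 969 CPM (ratio 3.72, 3.66 to 3.78) and Saa1 from 2.41 to 8.84 CPM (ratio 3.67, 3.08 to 4.40). Lcn2 went from 97.5 to 375 CPM (ratio 3.84, 3.74 to 3.95). The serum-type genes and lipocalin 2 thus shared a direction, with the largest ratio for haptoglobin. Among the protease inhibitors, Serpina3n went from 219 to 616 CPM (ratio 2.81, 2.76 to 2.86) and Serpina3g from 18.5 to 38.1 CPM (ratio 2.06, 1.93 to 2.21). Slpi went from 1.49 to 54.4 CPM (ratio 36.5, 29.5 to 45.5). Wfdc12 went from 2.95 to 26.7 CPM (ratio 9.05, 7.77 to 10.6). Slpi had the largest ratio of the 9, and its saline level rests on 88 UMIs in 47 cells. Without the 5 cells with the most Slpi UMIs in each library that ratio was 66.6. Chil1 went from 26.8 to 148 CPM (ratio 5.52, 5.24 to 5.81).

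These totals mix cell types that differed in number between the libraries. With the 7 clusters that had at least 50 cells in both libraries weighted as in saline, the ratio was 5.62 for Hp, 2.06 for Saa3, 1.66 for Lcn2, 2.77 for Serpina3n and 2.71 for Serpina3g. It was 4.49 for Slpi, against 36.5 unweighted, 3.03 for Wfdc12 and 2.66 for Chil1. For Saa1 it was 9.24, resting on few cells. The Rbp4 and Slc7a10 alveolar clusters held 42.1% and 32.4% of the UMIs of saline mesenchymal cells. The weighted ratios of all 9 genes thus lean heavily on the 222 and 109 bleomycin cells of these clusters. The ratios of Slpi, Wfdc12, Lcn2, Chil1 and Saa3 were at least 1.5 times smaller at a fixed mixture, and that of Hp was smaller by less. That of Serpina3n hardly changed, and those of Serpina3g and Saa1 were larger. This weighting leaves out the inflammatory and fibrotic clusters.

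**Figure D1:**
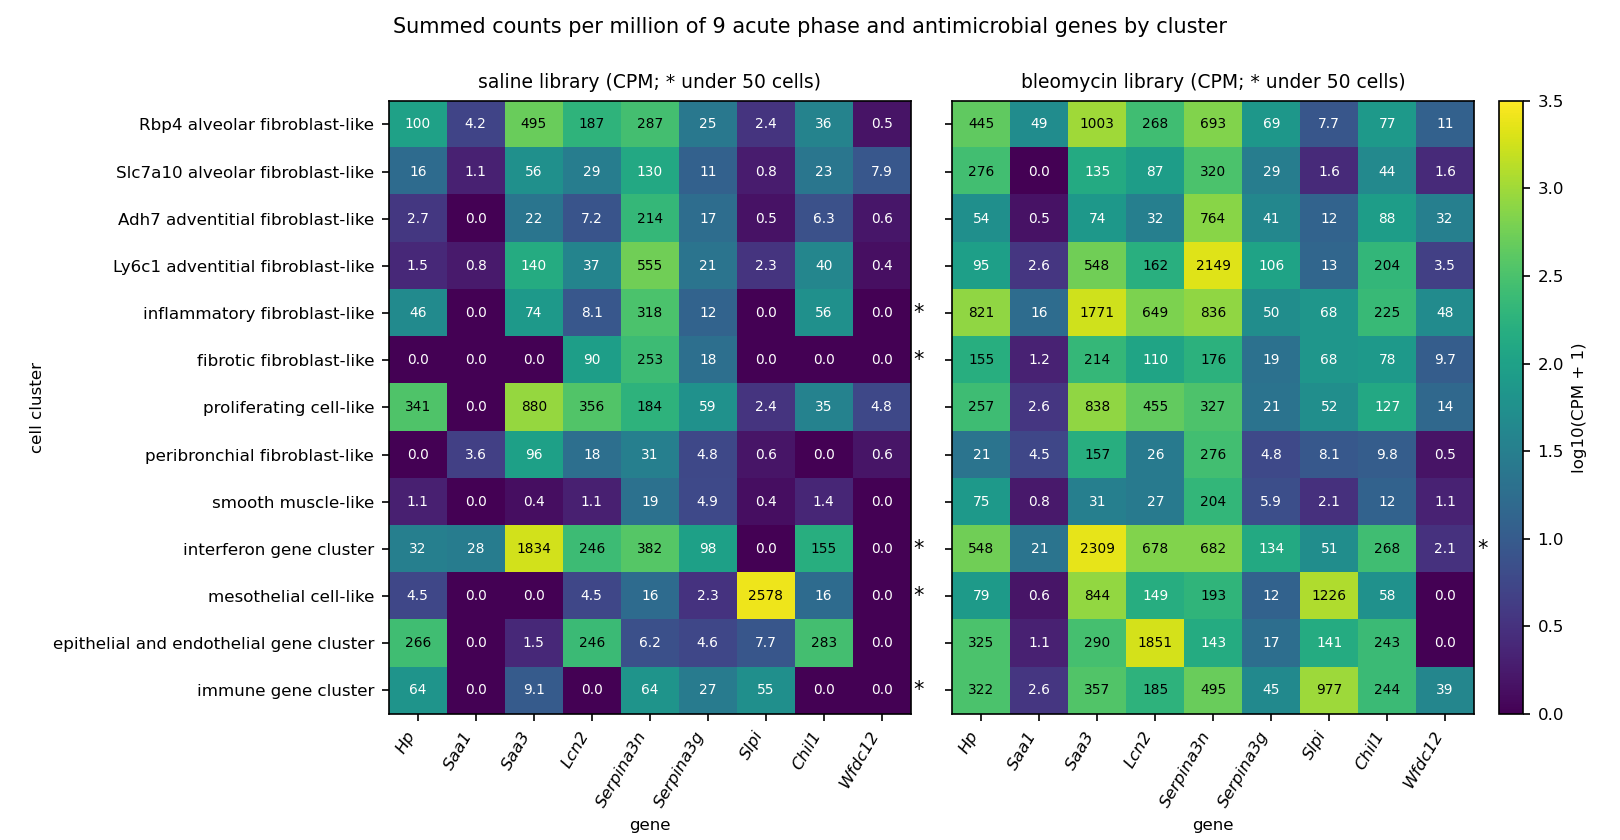
Level of each gene (CPM, printed in each square, colour as log10(CPM + 1)) in 13 clusters of the saline (left) and bleomycin (right) library, with an asterisk where a cluster had under 50 cells. Hp, Saa3 and Lcn2 were high in the inflammatory cluster of bleomycin and in the Rbp4 alveolar cluster, Serpina3n peaked at 2149 CPM in the Ly6c1 adventitial cluster and Slpi in the mesothelial cluster.

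Of all sums of cells, haptoglobin was highest in inflammatory fibroblast-like cells of bleomycin, at 821 CPM (814 to 829). There 41.6% of cells had at least 1 Hp UMI after each cell was thinned to 2000 UMIs, a step that makes shares comparable across depths (65.9% unthinned). The unnamed interferon gene cluster had 548 CPM in 30 bleomycin cells. Rbp4 alveolar cells had 99.8 CPM (95.9 to 104) in saline and 445 CPM (415 to 477) in bleomycin, a ratio of 4.46 (4.11 to 4.83). In the Slc7a10 alveolar cluster Hp went from 16.0 to 276 CPM (ratio 17.3, 14.2 to 20.9). Hp was thus higher in bleomycin in both alveolar clusters. In saline it was at most 2.73 CPM in the adventitial, muscle and peribronchial clusters: 2.73 CPM in Adh7 adventitial, 1.54 CPM in Ly6c1 adventitial and 1.06 CPM in smooth muscle-like cells, with 0 UMIs in peribronchial cells. In bleomycin these clusters reached 54.1, 94.6, 75.2 and 20.9 CPM in the same order. In smooth muscle-like cells the ratio rests on 3 saline UMIs (71.2, 24.2 to 347). In peribronchial cells Hp was at least 11.7-fold higher, taking 3 counts per library as the floor for a count of 0, but 5 of the 590 bleomycin cells held 63.6% of its UMIs. Proliferating cells had 341 CPM in saline, all of it in 4 of 51 cells, and 257 CPM in bleomycin. Fibrotic fibroblast-like cells of bleomycin had 155 CPM (151 to 159).

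Among clusters of at least 50 cells Saa3 was also highest in the inflammatory one, at 1771 CPM (1760 to 1782) in inflammatory cells of bleomycin, with a UMI in 26.8% of thinned cells (39.7% unthinned). Rbp4 alveolar cells had 495 CPM (487 to 504) in saline and 1003 CPM (957 to 1050) in bleomycin, a ratio of 2.02 (1.93 to 2.13). In this cluster the saline library already had Saa3 UMIs in 7.40% of thinned cells, against 14.9% in bleomycin. Ly6c1 adventitial cells had 140 CPM (126 to 155) in saline and 548 CPM (529 to 566) in bleomycin. Slc7a10 alveolar, Adh7 adventitial and peribronchial cells had 55.9, 21.9 and 96.0 CPM in saline and 135, 73.5 and 157 CPM in bleomycin. In proliferating cells Saa3 was not higher in bleomycin, with 880 CPM (818 to 946) in 51 saline cells and 838 CPM (822 to 854) in bleomycin. Fibrotic cells of bleomycin had 214 CPM (209 to 219). Smooth muscle-like cells had 1 Saa3 UMI in saline and 31.2 CPM in bleomycin (ratio 88.6, 15.7 to 3522). Outside the fibroblasts, mesothelial cell-like cells of bleomycin reached 844 CPM, with 75.7% of it in 5 of 117 cells. The unnamed interferon gene cluster had 1834 CPM in 41 saline cells and 2309 CPM in 30 bleomycin cells. There too, 5 cells held 98.1% and 94.2% of the Saa3 UMIs.

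Saa1 was rare. It had 142 UMIs in 52 saline cells and 1152 UMIs in 245 bleomycin cells. Its highest level was 48.7 CPM (39.0 to 59.9) in Rbp4 alveolar cells of bleomycin, against 4.19 CPM in saline, but 5 of the 222 cells held 88.6% of those 88 UMIs. Inflammatory cells of bleomycin had 16.5 CPM (15.4 to 17.6) and held 80.7% of all Saa1 UMIs of the mesenchymal cells. No other cluster with at least 50 cells exceeded 5 CPM. Its UMIs thus lay mostly in clusters that also held most of Saa3. Saa2, its near copy, had 0.373 CPM in saline and 1.28 CPM in bleomycin over all mesenchymal cells.

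Lcn2 was highest outside the mesenchyme, at 1851 CPM (1790 to 1914) in the bleomycin cells of a cluster led by epithelial genes such as Scgb1a1 and Sftpc. The saline cells of that cluster had 246 CPM (209 to 287). Within the mesenchyme, inflammatory cells of bleomycin had 649 CPM (643 to 656), and 23.9% of the thinned cells had a UMI (41.3% unthinned). Rbp4 alveolar cells had 187 CPM (181 to 192) in saline and 268 CPM (244 to 293) in bleomycin, a ratio of 1.43 (1.30 to 1.58) that did not reach 2-fold. Slc7a10 alveolar cells went from 29.5 to 86.5 CPM, Adh7 adventitial cells from 7.23 to 31.9 CPM and Ly6c1 adventitial cells from 37.3 to 162 CPM. Lcn2 was thus already present in alveolar fibroblast-like cells of saline, and 75.1% of its UMIs in bleomycin mesenchymal cells were in the inflammatory cluster. Proliferating cells had 356 CPM in saline, of which 5 of 51 cells held 97.7%, and 455 CPM in bleomycin.

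The Serpina3 pair had another pattern. Serpina3n was highest in Ly6c1 adventitial cells in both libraries, at 555 CPM (527 to 585) in saline and 2149 CPM (2113 to 2186) in bleomycin, a ratio of 3.87 (3.67 to 4.09). In thinned Ly6c1 cells, 50.8% (45.9 to 55.8) of saline and 91.0% (88.3 to 93.2) of bleomycin cells had a UMI. Inflammatory cells of bleomycin had 836 CPM, Adh7 adventitial cells 214 CPM in saline and 764 CPM in bleomycin, and Rbp4 alveolar cells 287 and 693 CPM. Smooth muscle-like cells (19.4 CPM in saline, 204 CPM in bleomycin) and peribronchial cells (31.0 and 276 CPM) had the lowest saline levels of the 7 mesenchymal clusters compared. They also had the largest ratios of those clusters, 10.5 (8.02 to 14.1) and 8.90. Fibrotic cells of bleomycin had 176 CPM (172 to 181), below inflammatory and adventitial cells of the same library with intervals apart. Proliferating cells went from 184 to 327 CPM, a ratio of 1.77 (1.51 to 2.10) under the 2-fold limit.

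Among clusters of at least 50 cells Serpina3g was also highest in Ly6c1 adventitial cells of bleomycin, at 106 CPM (97.7 to 114), against 21.2 CPM (15.9 to 27.5) in saline, a ratio of 4.99 (3.79 to 6.70). Rbp4 alveolar cells went from 24.6 to 69.1 CPM and Adh7 adventitial cells from 16.6 to 41.0 CPM. Inflammatory cells of bleomycin had 50.5 CPM (48.6 to 52.3), and 30 cells of the interferon gene cluster 134 CPM (103 to 171). In smooth muscle-like and peribronchial cells Serpina3g stayed under 6 CPM in both libraries, where Serpina3n had those ratios of 10.5 and 8.90. Of the classes compared, proliferating cells were the 1 in which a gene of the 9 was called lower in bleomycin: Serpina3g had 58.6 CPM (43.4 to 77.5) in saline and 20.6 CPM (18.2 to 23.2) in bleomycin, a ratio of 0.352 (0.259 to 0.487). In saline, 5 of the 51 proliferating cells held 79.6% of its 49 UMIs, and without the 5 cells with the most Serpina3g UMIs in each library the ratio was 1.27.

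Slpi had its highest levels outside the mesenchymal clusters. Mesothelial cell-like cells had 2578 CPM (2430 to 2732) in 42 saline cells and 1226 CPM (1174 to 1279) in 117 bleomycin cells. Among mesenchymal clusters of bleomycin, fibrotic cells had 68.1 CPM (65.3 to 70.9) and inflammatory cells 67.8 CPM (65.6 to 70.0), with overlapping intervals, and proliferating cells had 52.4 CPM (48.6 to 56.5). Slpi is the only one of the 9 genes whose level in fibrotic cells was not below that in inflammatory cells of bleomycin. The other fibroblast and muscle clusters of at least 50 cells stayed under 14 CPM in both libraries, and 30 bleomycin cells of the interferon gene cluster had 51.0 CPM. In the immune gene cluster of bleomycin Slpi reached 977 CPM (909 to 1050), with 86.0% of it in 5 of 70 cells. In saline, mesenchymal cells had 88 Slpi UMIs in all, of which 59 were in Rbp4 alveolar cells.

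Wfdc12 UMIs lay in different clusters in the 2 libraries. In saline, 151 of its 174 mesenchymal UMIs, or 86.8%, were in Slc7a10 alveolar cells (7.90 CPM, 6.69 to 9.27), and the other clusters of at least 50 cells were under 5 CPM. In bleomycin, 77.7% of its 3479 UMIs were in inflammatory cells (47.9 CPM, 46.1 to 49.8). The 109 Slc7a10 alveolar cells of bleomycin had 1 UMI, a ratio of 0.207 (0.00520 to 1.17) that does not separate the libraries. Adh7 adventitial cells had 31.7 CPM in bleomycin, but 1 cell held 190 of the 204 UMIs. Only 2.96% of thinned inflammatory cells had a Wfdc12 UMI (6.01% unthinned), and 1% of those cells held 75.5% of the UMIs. In saline no cluster but the alveolar ones had more than 4 Wfdc12 UMIs.

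Chil1 was present in mesenchymal and epithelial gene clusters alike. The epithelial and endothelial gene cluster had 283 CPM (243 to 327) in saline and 243 CPM (221 to 267) in bleomycin, with overlapping intervals. Inflammatory cells of bleomycin had 225 CPM (221 to 229) and Ly6c1 adventitial cells of bleomycin 204 CPM (193 to 215), against 40.0 CPM (32.7 to 48.5) in saline. Adh7 adventitial cells went from 6.27 to 87.7 CPM (ratio 14.0, 10.1 to 19.9), Rbp4 alveolar cells from 35.9 to 77.4 CPM (ratio 2.16, 1.79 to 2.58), and Slc7a10 alveolar cells from 22.8 to 44.1 CPM (ratio 1.93, 1.26 to 2.85). The ratio was thus larger in adventitial than in alveolar clusters, with intervals apart between Adh7 and both alveolar clusters. Chil1 had 0 UMIs in 405 peribronchial cells of saline and 9.84 CPM in bleomycin.

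**Figure D2:**
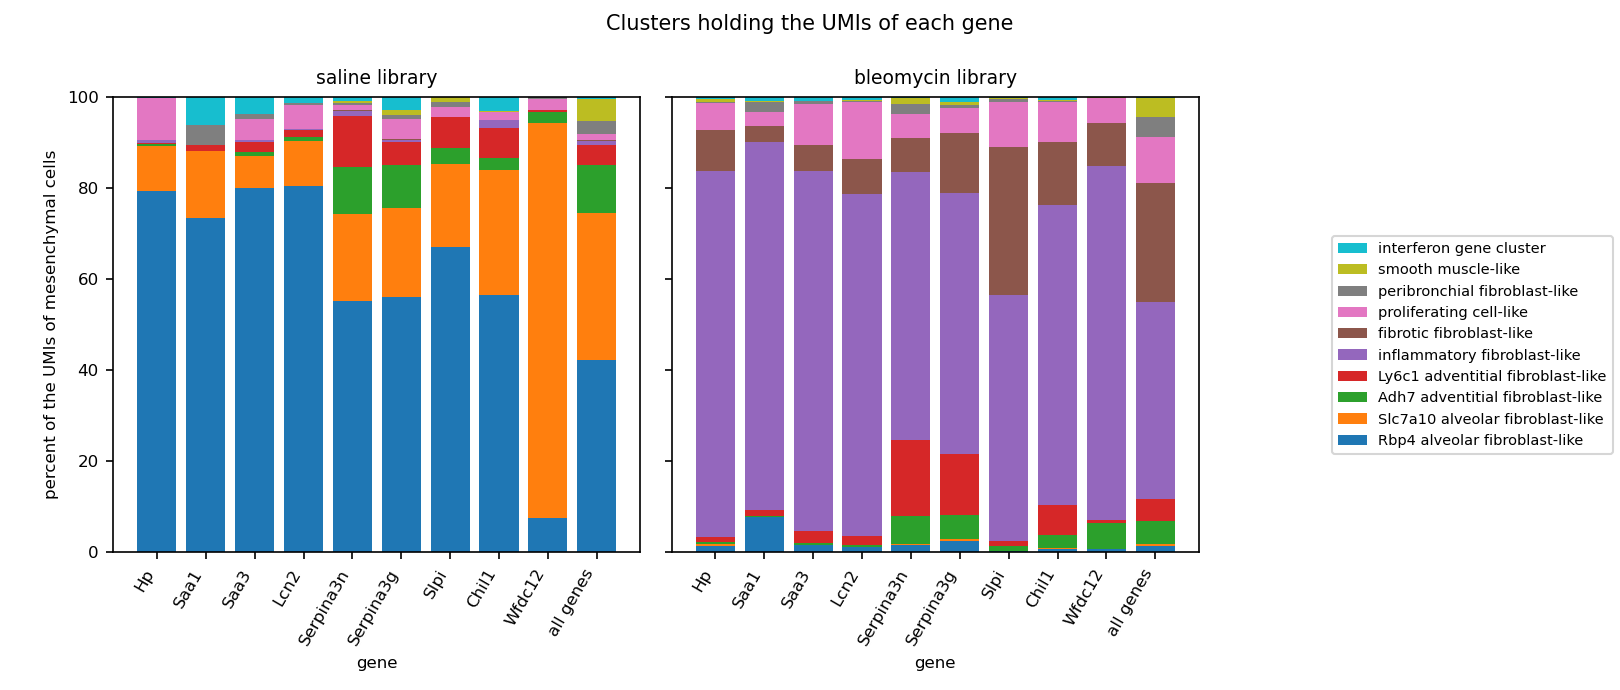
Percent of each gene's UMIs in mesenchymal cells that came from each of 10 clusters, in saline (left) and bleomycin (right), with all genes as the last bar. The Rbp4 alveolar cluster (blue) held 79.3% of Hp UMIs in saline and the inflammatory cluster (purple) held 80.3% in bleomycin.

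In each library 1 cluster held most of the UMIs of the serum-type genes. In saline, the Rbp4 alveolar cluster held 79.3% of Hp, 79.9% of Saa3 and 80.5% of Lcn2 UMIs, beside 42.1% of the UMIs of all genes. In bleomycin, the inflammatory cluster held 80.3% of Hp, 79.1% of Saa3 and 75.1% of Lcn2 UMIs, beside 43.3% of all. These bleomycin shares depend on the clustering: at resolution 1 the name went to 2 clusters with 989 bleomycin cells, which held 7.10% of Hp, 6.73% of Saa3 and 4.12% of Lcn2 UMIs, at an Hp level of 305 CPM. Serpina3n and Serpina3g were less concentrated in bleomycin, with 58.8% and 57.4% in the inflammatory cluster and 16.7% and 13.3% in Ly6c1 adventitial cells, which had 4.78% of all UMIs. Slpi had 54.0% in the inflammatory and 32.6% in the fibrotic cluster, which held 26.1% of all UMIs.

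Within the 5 cell classes that could be compared, 24 of 45 gene-by-class comparisons were called higher in bleomycin, 1 lower and 20 neither. A gene under 10 CPM in both libraries could not be called and counts as neither. Of the 9 genes, 7 reached that level in the alveolar class and 8 in the adventitial class. In smooth muscle-like, peribronchial and proliferating cells 5, 4 and 8 genes did. The bleomycin side of the alveolar class is the 222 Rbp4 and 109 Slc7a10 alveolar cells, without the inflammatory cluster. In the alveolar class (both alveolar clusters) 6 of 9 genes were called higher, Hp, Saa1, Saa3, Serpina3n, Serpina3g and Chil1, and 0 lower, where 1.31% of all measured genes were higher and 0.754% lower. Hp had the largest ratio of these apart from Saa1, 6.35 (5.90 to 6.84), followed by Serpina3g with 3.16 (2.63 to 3.78). Without the 5 cells with the most UMIs of the gene in each library, an alternative chosen after seeing the data, 3 of these calls were lost: Saa3 (ratio 2.58, then 1.49), Chil1 (2.28, then 1.51) and Saa1 (12.8, then 2.97). With the 9 genes used in clustering, the ratios of Saa1 and Saa3 in this class turned to 0.622 each and their calls ended. At resolution 1 the call of Saa1 was also lost (ratio 3.64).

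In the adventitial class 8 of 9 genes, all but Saa1, were called higher and 0 lower, where 3.39% of all genes were higher and 3.62% lower. Hp went from 2.38 to 74.0 CPM (ratio 31.1, 20.2 to 50.5), Saa3 from 56.7 to 307 CPM (ratio 5.41, 4.93 to 5.95) and Serpina3n from 315 to 1446 CPM (ratio 4.59, 4.41 to 4.78). Chil1 went from 16.2 to 145 CPM (ratio 8.93, 7.53 to 10.7), Lcn2 from 16.1 to 96.1 CPM (ratio 5.97, 5.01 to 7.16) and Serpina3g from 17.9 to 72.8 CPM (ratio 4.07, 3.43 to 4.84). Without those 5 cells the calls of Slpi (ratio 12.3, then 12.1 at a level under 10 CPM) and Wfdc12 (31.5, then at least 3.02) were lost, the ratio of Hp was 54.9 and that of Saa3 was 8.56.

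In smooth muscle-like cells 5 genes, Hp, Saa3, Lcn2, Serpina3n and Chil1, were called higher and 0 lower, where 4.33% of all genes were higher and 2.38% lower. Their saline counts were 3, 1, 3, 55 and 4 UMIs. Without the 5 cells no saline UMI of Hp, Saa3, Lcn2 or Chil1 was left, and their ratios became bounds of at least 37.9, 11.9, 8.67 and 5.94. The ratio of Serpina3n was then 15.6, and the calls of Lcn2 and Chil1 were lost. In peribronchial cells 2 genes, Hp and Serpina3n, were called higher and 0 lower, where 6.37% of all genes were higher and 6.50% lower. The call of Hp was lost without the 5 cells, with a bound of at least 4.28. In proliferating cells Slpi (ratio 21.9, 6.04 to 181), Chil1 (ratio 3.65, 2.53 to 5.46) and Wfdc12 (ratio 2.99, 1.15 to 11.1) were called higher, where 3.92% of all genes were, and Serpina3g lower, where 8.17% were. The saline side of that class is 51 cells. Its cells also differed in other markers between the libraries. The fibrotic markers summed to 798 CPM in saline and 12388 CPM in bleomycin, and the inflammatory markers to 6563 and 3715 CPM. The part of this difference in the ratios was not tested. Without the 5 cells Slpi was at least 10.0-fold higher, the ratio of Chil1 was 10.5 and the call of Wfdc12 was lost.

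**Figure D3:**
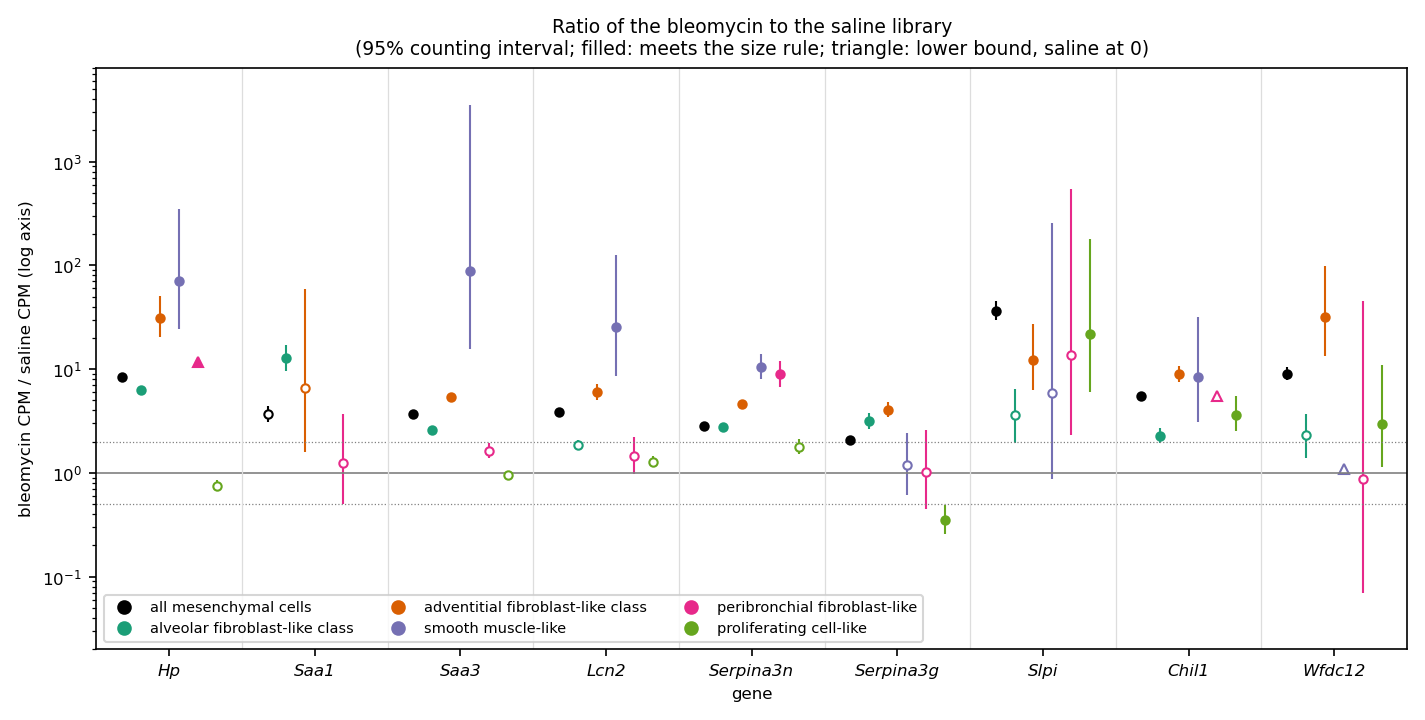
Ratio of bleomycin to saline CPM (log axis) for each gene in all mesenchymal cells and 5 classes, with 95% counting intervals; filled symbols meet the size rule, triangles are lower bounds against a floor of 3 counts, and a gene with no symbol in a class had too few counts for a ratio. Hp, Saa3 and Serpina3n lay above 2 in the adventitial and smooth muscle-like cells, and Serpina3g in proliferating cells lay at 0.352.

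The UMIs of most of the 9 genes were held by few cells. In saline mesenchymal cells, the top 1% of cells held 75.9% of Hp, 77.2% of Saa3 and 72.9% of Lcn2 UMIs, and 1 cell had 648 Saa3 UMIs. In bleomycin the top 1% held 24.4%, 35.2% and 39.6%. Serpina3n UMIs were spread more widely, with 8.05% in the top 1% of bleomycin cells. Cells with a UMI also carried more Saa3 molecules than Serpina3n molecules: in thinned bleomycin cells with a UMI the mean was 10.7 UMIs of Saa3 and 2.60 of Serpina3n. The mean per positive cell differed little between libraries for Saa3 (9.71 in saline) and the share of positive thinned cells went from 3.85% (3.44 to 4.30) to 17.1% (16.4 to 17.9), or 5.72% to 28.5% unthinned. For Serpina3n the share went from 26.8% (25.8 to 27.8) to 51.6% (50.6 to 52.6), or 53.2% to 77.8% unthinned, and the mean from 1.51 to 2.60.

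No cluster is known to lack these genes, so the lowest clusters are given for comparison. In thinned bleomycin cells, smooth muscle-like cells (median depth 8180 UMIs before thinning) had an Hp UMI in 4.36% (2.78 to 6.46), a Saa3 UMI in 3.03% (1.74 to 4.87) and an Lcn2 UMI in 1.52% (0.656 to 2.96). Inflammatory cells (median 11751 UMIs) had shares of 41.6%, 26.8% and 23.9%. In bleomycin, smooth muscle-like cells had 395 Hp to 164 Saa3 UMIs. Peribronchial cells had 121 to 907, with most of the Hp UMIs in few cells, and inflammatory cells had 46349 to 99926. The source of this RNA was not tested from these counts. The share for Hp in Adh7 adventitial cells, 3.93% (2.51 to 5.84), had an interval that overlapped that of smooth muscle-like cells. The part of stray RNA in these low shares, and so in the calls of Hp, Saa3 and Lcn2 in smooth muscle-like cells, was not tested.

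Co-detection was measured in thinned cells as the number of cells with both genes over the number expected if the genes were independent. A pair was called shared where this ratio was at least 1.5 and its interval clear of 1. Of 36 pairs, 18 were shared in saline mesenchymal cells and 23 in bleomycin. Pairs of other genes were not counted, so these numbers have no background share and are not a trait of these genes. The highest ratio with at least 10 cells in saline was that of Saa3 and Lcn2: 113 cells had both where 11.1 were expected (ratio 10.2, 8.37 to 12.2). Of saline cells with Saa3, 36.8% had Lcn2, and of those with Lcn2, 39.1% had Saa3. Hp and Lcn2 followed with 64 cells (ratio 8.06, 6.21 to 10.3), then Lcn2 and Chil1 with 55 (ratio 6.02, 4.54 to 7.84). The serum-type genes, lipocalin 2 and Chil1 were thus held by overlapping cells in saline. The 6 pairs among Hp, Saa3, Lcn2 and Chil1 were all shared in both libraries.

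In bleomycin mesenchymal cells, Saa3 and Lcn2 were together in 777 cells where 244 were expected (ratio 3.18, 2.96 to 3.41), which was 47.8% of cells with Saa3 and 54.6% of cells with Lcn2. Saa1 was with Saa3 in 62 of its 84 cells (ratio 4.31, 3.30 to 5.52). The WAP pair Slpi and Wfdc12 shared 27 cells where 6.45 were expected (ratio 4.18, 2.76 to 6.09). In bleomycin Wfdc12 thus shared cells with Slpi, Chil1 (76 cells), Lcn2 (72 cells) and Hp (100 cells). In saline Wfdc12 was found in 37 thinned cells, with Hp in 2 of them and Serpina3n in 13 (ratios 1.97, 0.238 to 7.11, and 1.31, 0.698 to 2.24), too few to call any of its pairs. The ratios of the 2 libraries are not compared as sizes, since a gene in many cells leaves less room above the expected count.

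Part of such sharing is set by differences between clusters, so pairs were also counted within the inflammatory cluster of bleomycin. There 14 of 36 pairs were shared, again without a count for pairs of other genes. Saa3 and Lcn2 were together in 613 of 4362 cells (ratio 2.19, 2.02 to 2.37), Lcn2 and Chil1 in 442 (ratio 2.04, 1.85 to 2.23), Slpi and Wfdc12 in 21 (ratio 3.55, 2.20 to 5.43) and Saa1 and Saa3 in 46 (ratio 2.64, 1.93 to 3.52). Hp with Saa3 (ratio 1.43, 1.33 to 1.54) and Hp with Lcn2 (ratio 1.44, 1.33 to 1.56) had intervals above 1 and missed the limit of 1.5. Serpina3n was found in 68.6% of these cells, so the largest ratio its pairs could reach was 1.46, and none could be called shared. With Hp it reached 1.13 (1.07 to 1.19). With Slpi it gave 131 cells where 137 were expected (ratio 0.955, 0.798 to 1.13). In fibrotic cells of bleomycin, Saa3 and Lcn2 were together in 48 of 1932 cells (ratio 6.09, 4.49 to 8.07), and in Rbp4 alveolar cells of saline in 96 of 2878 (ratio 5.90, 4.78 to 7.20). Cells that hold 2 cells in 1 droplet could also raise these numbers, and their part was not tested beyond the alternative without the highest doublet scores, where 13 pairs were shared in the inflammatory cluster and 26 in all bleomycin mesenchymal cells.

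**Figure D4:**
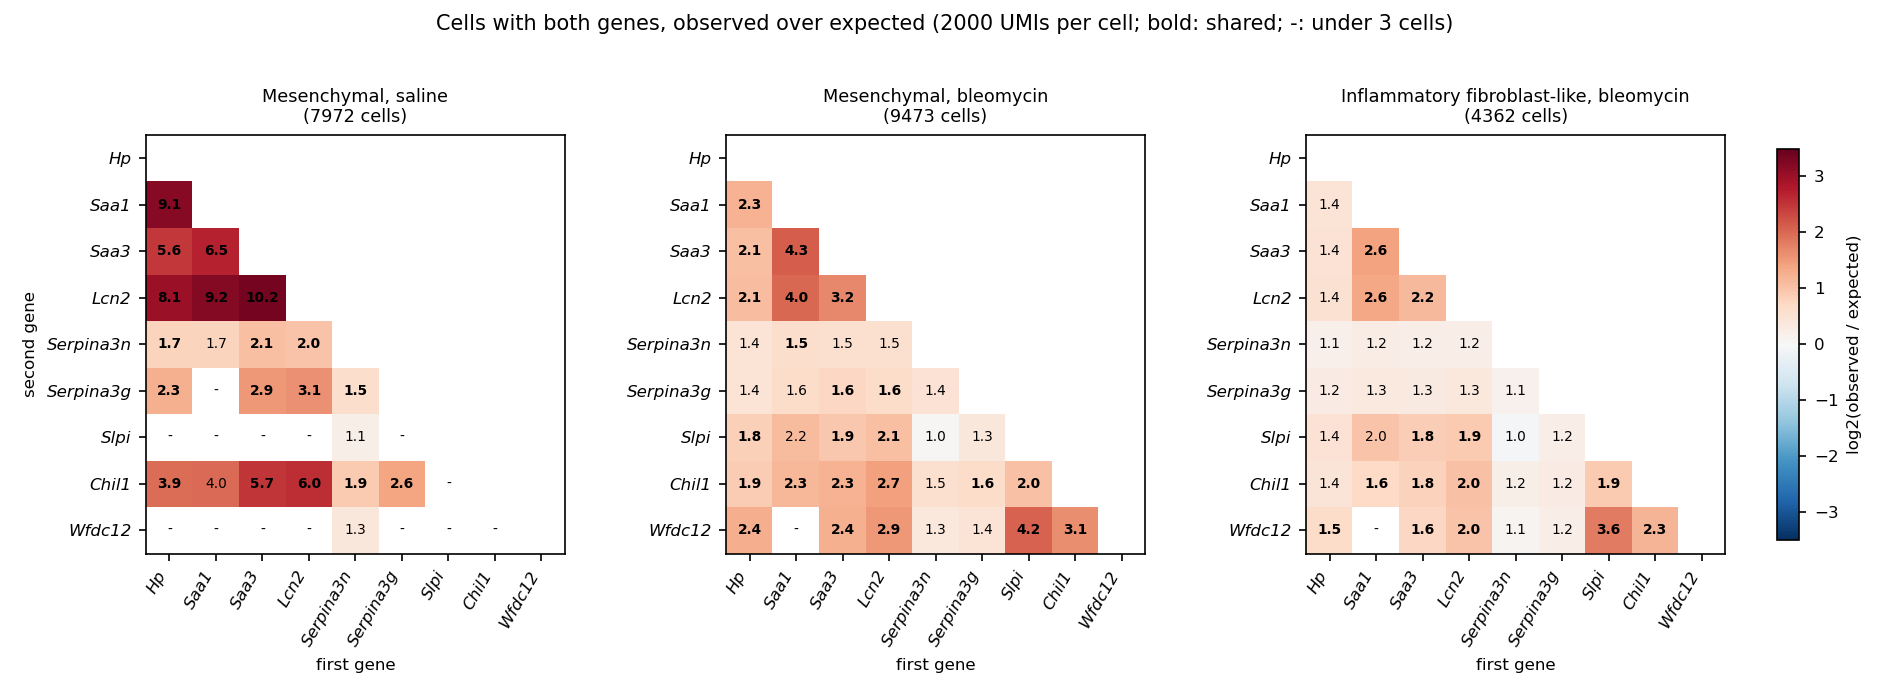
Cells with both genes of a pair, observed over expected, in thinned cells of the saline mesenchyme, the bleomycin mesenchyme and the inflammatory cluster of bleomycin (colour on a log2 scale, numbers are the ratio, bold for shared pairs, a dash for under 3 cells). Saa3 with Lcn2 reached 10.2, 3.18 and 2.19, and pairs with Serpina3n stayed near 1 in the inflammatory cluster.

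At least 3 of the 9 genes were found together in 2.23% (1.92 to 2.58) of thinned saline mesenchymal cells and in 19.5% (18.7 to 20.4) of bleomycin ones. In bleomycin the share was 32.6% (31.2 to 34.0) in inflammatory cells, 20.5% (17.2 to 24.0) in Ly6c1 adventitial cells, 17.6% (12.9 to 23.3) in Rbp4 alveolar cells and 6.78% (5.70 to 7.99) in fibrotic cells. It was 1.33% (0.535 to 2.71) in smooth muscle-like and 0.514% (0.106 to 1.49) in peribronchial cells. The saline shares of these clusters were 4.59% (3.85 to 5.42) in Rbp4 alveolar and 2.41% (1.16 to 4.39) in Ly6c1 adventitial cells. In smooth muscle-like cells of saline it was 0 of 355 (0 to 1.03). As many as 7 of the 9 genes were found in 1 thinned cell of bleomycin and 5 in saline.

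**Figure D5:**
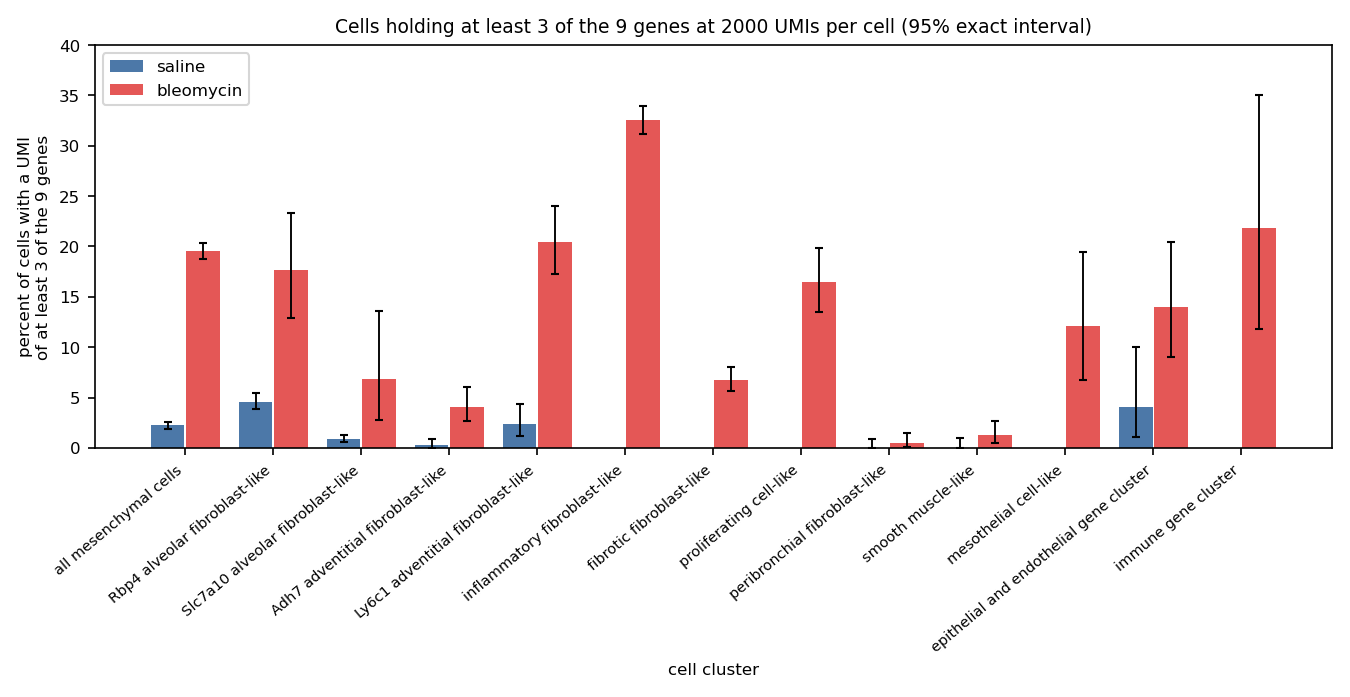
Percent of cells with a UMI of at least 3 of the 9 genes at 2000 UMIs per cell, by cluster and library, with 95% exact binomial intervals; a cluster has no bar for a library with under 50 thinned cells. Inflammatory cells of bleomycin had the highest share, 32.6%, and peribronchial and smooth muscle-like cells the lowest.

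Across 20 sums of cells (cluster by library, each of at least 50 cells), genes were ranked by Pearson correlation of log2(CPM + 10) with each member, as a description of points that share libraries and depth. Hp was most like Lcn2 (r = 0.863) and Lcn2 was also like Chil1 (r = 0.808). Serpina3n was most like Cpxm1 (r = 0.934) and Nid1 (r = 0.913), and Serpina3g also had Cpxm1 first (r = 0.889). The 2 serpins correlated with r = 0.789. Saa3 was most like Zbp1 (r = 0.805), Saa1 like Sod2 (r = 0.696), Slpi like Pafah1b3 (r = 0.882), Chil1 like Tmem9b (r = 0.828) and Wfdc12 like Lgmn (r = 0.759).

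Other acute phase genes did not share one direction. Beside the counts below, 5.56% of all measured genes were called higher and 5.91% lower over mesenchymal cells. Of 24 further serum acute phase genes, 10 were measured at 10 CPM or more in mesenchymal cells, and 3 were called higher: Lrg1 (0.356 to 11.4 CPM, ratio 32.1, 20.9 to 52.0), Ptx3 (6.90 to 32.4 CPM, ratio 4.70, 4.24 to 5.21) and Lbp (24.7 to 57.4 CPM, ratio 2.32, 2.20 to 2.46). None was called lower, and the list had a median log2 ratio of -0.22 beside -0.04 for all measured genes. Crp and Apcs, classical liver acute phase genes, had 0 UMIs in both libraries. Of 13 other clade A serpins in the files 1 was measured, Serpina3c, lower with a ratio of 0.426. Of 23 other WAP, chitinase-like and antimicrobial genes 2 were measured, of which Wfdc1 was lower (ratio 0.490). The median log2 ratio of the WAP list was -0.49.

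Upstream genes moved in both directions. The same shares of all measured genes, 5.56% higher and 5.91% lower, stand beside these counts. Of 9 inducing cytokines 3 were measured, and Lif (41.7 to 224 CPM, ratio 5.37) and Il11 (12.9 to 61.7 CPM, ratio 4.78), both of the interleukin-6 family, were called higher, while Il6 had 621 and 715 CPM (ratio 1.15, 1.14 to 1.17). The median log2 ratio of these 3 was 2.26. Of 19 receptors and adaptors 17 were measured, 0 were higher and 4 were lower: Il6ra (ratio 0.273), Myd88 (ratio 0.410), Il11ra1 (ratio 0.456) and Ifngr1 (ratio 0.484), with a median log2 ratio of 0.10. Of 14 transcription factors and feedback genes, all measured, only Cebpd was called, with 2873 CPM in saline and 1352 CPM in bleomycin (ratio 0.471), and the median log2 ratio was -0.34. None of 7 measured binding partners, such as the haptoglobin pathway gene Hmox1 and the lipocalin receptor gene Slc22a17, was called, and their median log2 ratio was 0.01. Dissociation can itself induce stress genes, and 4 of 9 of them (Jun, Egr1, Hspa1b and Atf3) were lower in bleomycin, with a median log2 ratio of -0.90. Their part in the levels of the 9 genes was not tested.

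Markers of the cells best known for these genes were low in the mesenchymal clusters. In inflammatory cells of bleomycin the 10 neutrophil markers summed to 8.65 CPM with 1 at 0 and none at 10 CPM, beside 649 CPM of Lcn2. The 10 alveolar epithelial markers summed to 35.7 CPM and the 9 airway epithelial markers to 31.2 CPM, with 1 of these at 0. In Rbp4 alveolar cells of saline the sums were 1.61 CPM for neutrophil, 58.6 CPM for alveolar epithelial and 38.0 CPM for airway epithelial markers. The parts of these cells in the levels above were not tested further. The 11 macrophage markers summed to 22.0 CPM in inflammatory cells of bleomycin and 23.3 CPM in Rbp4 alveolar cells of saline.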

How the data were processed

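The deposited files hold whole-number UMI counts per gene and cell barcode, made by the authors with Cell Ranger 6.1.2 on mm10, per the submitters' processing notes. One library per treatment was analysed (8396 saline and 10138 bleomycin barcodes, with 60937359 and 134732429 UMIs). Cells with at least 500 genes and at most 10% mitochondrial UMIs were kept. The doublet caller marked 66 saline cells (0.790%), which were left out, and 0 bleomycin cells, so it did not work there and doublets remain. Cells were clustered without the 9 genes (scanpy 1.11.5, scikit-learn 1.9.0, igraph 0.11.9 and scipy 1.17.1 in Python 3.11.15), with 2000 variable genes, 30 components, 15 neighbours and Leiden resolution 0.5.

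Counts were summed per cluster and library as CPM with exact Poisson intervals. Ratios had exact conditional binomial intervals and shares had Clopper-Pearson intervals, all at 95%. Shares and pairs used cells thinned to 2000 UMIs, which left out 144 saline and 153 bleomycin mesenchymal cells. UMIs limit but do not remove amplification error, and deeper libraries have narrower intervals. The ratio and interval code was tested on simulated data. All 9 genes were named. From each gene list the genes meeting the size rule over all mesenchymal cells were named (up to 6 by fold). A few others, Saa2, Crp, Apcs, Il6, Hmox1 and Slc22a17, were named after their values were seen. Like genes were the leading ones of 5 by correlation for each member. The members and lists were chosen with earlier results of these data known. Alternatives changed the cell filters, doublet scores, clustering, weighting of cells, thinning, UMI minimum, level minimum and fold limit.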

Additional observations from a re-analysis of the deposited data

Results flagged for a closer look

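Serpina3g went in opposite directions in 2 clusters. Its ratio of bleomycin to saline was 0.352 (0.259 to 0.487) in proliferating cell-like cells and 4.99 (3.79 to 6.70) in Ly6c1 adventitial fibroblast-like cells. The difference between these ratios was not tested, since each cluster has 1 library per treatment. The proliferating cells of saline were 51 cells with 49 Serpina3g UMIs, and without the 5 cells with the most Serpina3g UMIs in each library their ratio was 1.27.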

How the results depend on the processing

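No paired analysis was possible because each treatment had 1 library. Over all mesenchymal cells the number of genes called higher was between 6 and 9 across the alternatives, beside 8. Within classes it was between 20 and 31 of 45 or 54 comparisons, beside 24. Without the 5 cells with the most UMIs of a gene, an alternative chosen after seeing the data, 15 of the 24 calls within classes stayed, 5 others were added and Serpina3g in proliferating cells reversed to 1.27. With the 9 genes used in clustering, Saa1 and Saa3 in the alveolar class reversed, both to 0.622. There 1717 saline cells, beside 45, were in clusters named inflammatory and held 64.0% of Hp and 72.8% of Saa3 UMIs, beside 0.736% and 0.241%. At resolution 1 there were 1526 saline and 989 bleomycin cells, beside 4406, and the bleomycin cells held 7.10% of Hp UMIs, beside 80.3%. The share of cells with a UMI was higher in bleomycin, with intervals apart, in 18 of 45 gene-by-class comparisons, and in 28 without thinning. Lower shares, and shares for other genes, were not counted. Shared pairs in the inflammatory cluster numbered 14, and 8 without thinning. At resolution 1 they also numbered 8, in the fewer cells of the clusters that then had the name. Over all saline mesenchymal cells, shared pairs numbered 18, and 10 when 2 UMIs of each gene were required. The causes were not tested. With stricter cell filters or without the highest doublet scores, proliferating cells could not be compared. Depth limits Saa1, Slpi and Wfdc12 in saline most, with 142, 88 and 174 UMIs.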
